A study of Mus musculus with 13 samples.

Results

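Lung epithelial transcription factors were followed as a set of 10 genes, Nkx2-1, Foxa1, Foxa2, Gata6, Cebpa, Cebpd, Klf5, Elf3, Ehf and Grhl2, taken by symbol from the 32544 gene symbols of the count table. All 10 were found and all 10 passed the filter on low counts, which left 12496 genes for testing. RNA came from perfused and flash-frozen lungs of wild-type male C57BL/6J mice, bought at 7 weeks of age. The labels do not give their age at exposure, which the study states only as a range for all its experiments. The mice were kept for 5 days in 21% oxygen (normoxia, 7 libraries) or 80% oxygen (hyperoxia, 6 libraries). The hyperoxic gas was mixed from nitrogen, oxygen and room air. Libraries were made with Quant-seq, which reads the 3′ end of polyadenylated transcripts, from 500 ng of RNA each. The labels do not state that every library came from a mouse of its own, so the p-values measure the spread between these libraries, which may in part be technical. Whole lung was sequenced, and none of the cell types was sorted.

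The identity of lung epithelium is held by transcription factors that act together. Nkx2-1, a homeodomain protein, is required to form the lung epithelium and drives the surfactant protein genes of alveolar type 2 cells, while the forkhead proteins Foxa1 and Foxa2 and the zinc finger protein Gata6 act on many of the same genes. The leucine zipper proteins Cebpa and Cebpd bind the same DNA motif but have different uses, as Cebpa is tied to the maturation of type 2 cells and Cebpd is induced in many cell types by inflammation and injury. Klf5, a zinc finger protein, takes part in lung maturation, Elf3 and Ehf are Ets factors of barrier epithelia, and Grhl2 maintains epithelial junctions.

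Depth ran from 1607111 to 3387736 counts in the normoxic libraries and from 2029006 to 4540288 counts in the hyperoxic ones, so that 3 counts, taken as the floor, stood for 0.656 to 1.84 CPM, the count relative to the library's total as scaled by TMM, the trimmed mean of M-values. The floor covers counting error only, since the counts carry no molecular identifiers. Hyperoxia replicate 1 stood apart, with correlations of log2 CPM of 0.721 to 0.833 with the others against 0.854 to 0.967 among the other 12, and the calls of the 10 factors and of the epithelial lists are given without it as well. The defining genes of lung were counted in all 13 libraries, from 32.7 to 13600 CPM for Sftpc of type 2 cells and from 162 to 51500 CPM for Scgb1a1 of club cells, and without that library from 666 and 2780 CPM on. Because Nkx2-1 is also a thyroid factor, thyroid RNA was checked for, and Tg, the thyroglobulin gene, had 5 counts in total over the 13 libraries.

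Of the 10 factors, Nkx2-1 and Cebpa were lower and Cebpd was higher in hyperoxia, and 7 did not pass. A gene was called where edgeR's quasi-likelihood test gave an adjusted p below 0.05, with Benjamini-Hochberg adjustment over all genes tested. Among all genes tested, 22.6% passed, 11.8% higher and 10.8% lower, so that 3 of 10 factors called, 1 higher and 2 lower, stood close to the background. The log2 fold change of hyperoxia against normoxia was below 0 for 8 of the 10 factors, with a median of −0.44 against −0.03 over all genes tested. The sign of all 10 was the same under the 5 other scalings tried. Of all calls, 52.3% were higher with TMM scaling, 38.8% with limma on the deposited log10 values and 12.7% with scaling to pan-epithelial counts. Without hyperoxia replicate 1, Cebpd was higher and 3 factors were lower, Ehf having been added, while 28.5% of the 12752 genes then tested passed, 15.2% higher and 13.3% lower.

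**Figure D1:**
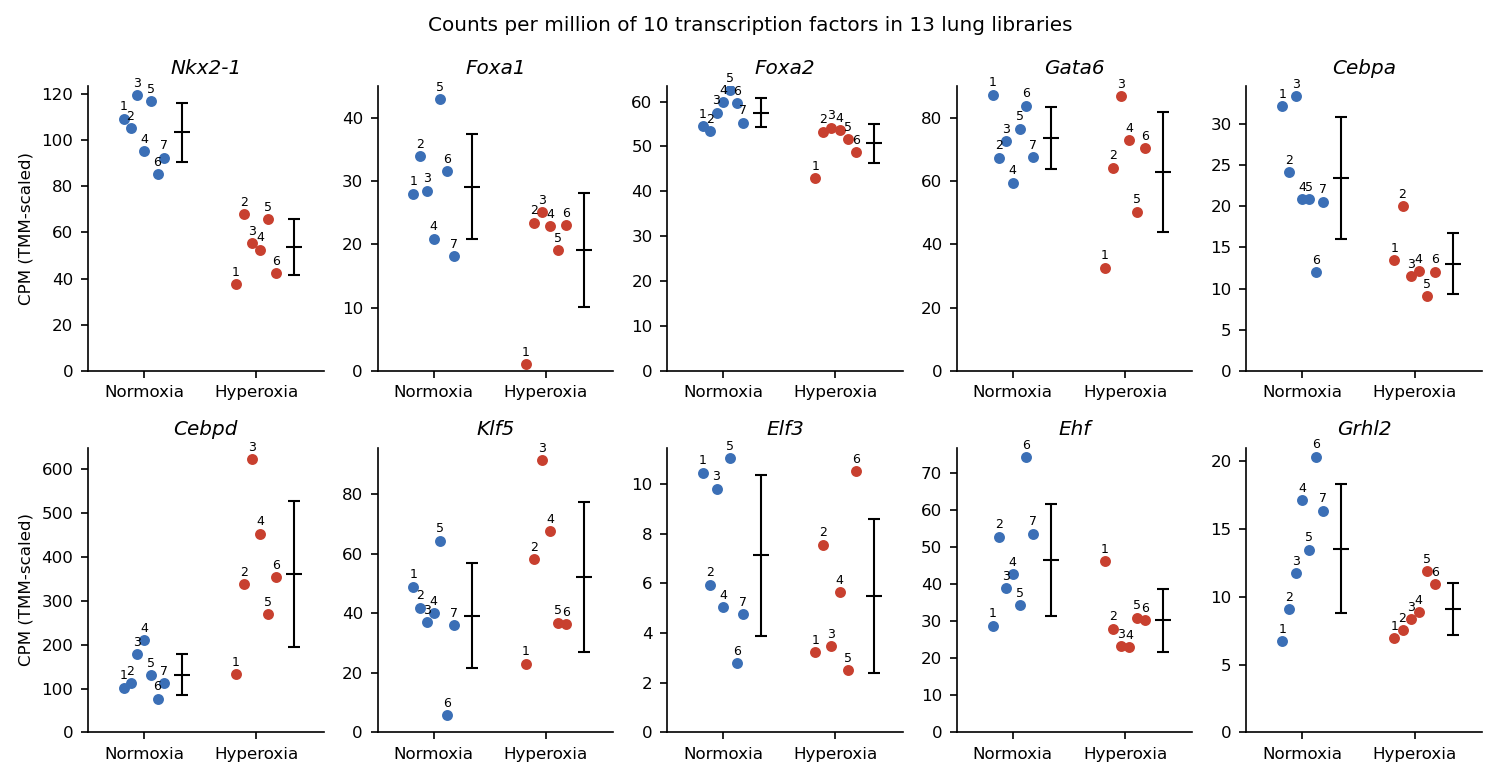
TMM-scaled CPM (vertical axes, from 0) of each factor in the 7 normoxic (blue) and 6 hyperoxic (red) libraries, numbered by replicate, with the mean and SD of each group in black. All 6 hyperoxic libraries lie below the 7 normoxic libraries for Nkx2-1, 5 of 6 lie above them for Cebpd, and hyperoxia replicate 1 lies at 1.07 CPM for Foxa1.

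Nkx2-1 was lower in hyperoxia by 0.95 on the log2 scale (log2 fold change −0.95 ± 0.16 SE, 95% interval −1.28 to −0.61, adjusted p = 0.000516, edgeR quasi-likelihood test), a 1.93-fold difference. Its level was 85.3 CPM at the lowest, 105 at the median and 119 at the highest in normoxia (mean 103 ± 12.9 SD, n = 7). In hyperoxia it was 37.5, 53.9 and 68.0 CPM in the same order (mean 53.6 ± 12.2 SD, n = 6). The groups did not overlap, and within hyperoxia the lowest value came from replicate 1 and the highest from replicate 2. Among the 10 factors this held for Nkx2-1 alone, and for 0 in the higher direction, while 5.23% of all genes tested lay apart as lower and 5.6% as higher. Without hyperoxia replicate 1 the log2 fold change was −0.85 (adjusted p = 0.000372, edgeR). In bulk lung, fewer cells that express a factor and less of its RNA in each cell cannot be told apart.

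Cebpa was lower by 0.85 on the log2 scale (log2 fold change −0.85 ± 0.25 SE, 95% interval −1.38 to −0.32, adjusted p = 0.0217, edgeR), a 1.80-fold difference. In normoxia the lowest, median and highest values were 11.99, 20.9 and 33.4 CPM (mean 23.4 ± 7.39 SD, n = 7), and in hyperoxia they were 9.07, 12.1 and 20.03 CPM (mean 13.02 ± 3.72 SD, n = 6). The groups overlapped through normoxia replicate 6, which lay below 4 of the 6 hyperoxic libraries, while the other 6 normoxic libraries lay above all of them. The call did not hold without normoxia replicate 1 (adjusted p = 0.056), normoxia replicate 3 (0.0598) or hyperoxia replicate 5 (0.054), all by edgeR, and the log2 fold change was then between −0.75 and −0.72.

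Nkx2-1 and Cebpa were the factors called lower, and their promoters are shown to give the regions upstream of these genes. In the GENCODE M21 annotation of GRCm38, Nkx2-1 lies on the minus strand of chr12:56531958-56536908 and Cebpa on the plus strand of chr7:35119293-35121928, and an antisense gene overlaps each of them. Promoter sequences are from RefSeq on GRCm38.p6, chr12:56536859-56537158 on the minus strand and chr7:35119043-35119342 on the plus strand, with 250 bases before the start of the gene in lower case and 50 bases from it on in capitals.
Nkx2-1: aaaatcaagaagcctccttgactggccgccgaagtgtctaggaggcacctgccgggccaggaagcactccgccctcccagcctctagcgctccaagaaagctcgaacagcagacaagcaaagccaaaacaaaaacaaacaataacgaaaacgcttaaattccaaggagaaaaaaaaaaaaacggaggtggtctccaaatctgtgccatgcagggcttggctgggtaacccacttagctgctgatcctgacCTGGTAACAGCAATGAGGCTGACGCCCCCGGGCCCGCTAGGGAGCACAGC
Cebpa: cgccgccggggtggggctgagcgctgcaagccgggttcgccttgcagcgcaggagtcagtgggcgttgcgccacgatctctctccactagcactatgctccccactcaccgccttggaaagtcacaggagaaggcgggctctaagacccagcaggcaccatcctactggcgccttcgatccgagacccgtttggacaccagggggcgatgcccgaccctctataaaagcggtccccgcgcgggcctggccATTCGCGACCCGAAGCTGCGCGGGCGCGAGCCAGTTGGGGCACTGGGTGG
Each of the 2 windows was searched on both strands for the AP-1 motif TGACTCA, the CCAAT box and the STAT motif TTCCNGGAA, none of which contains another, and held 0 of the 3. Among 32851 promoters of the same length, 5.2% held the AP-1 motif, 37.4% the CCAAT box and 1.15% the STAT motif. The table held promoters of 5 of the 10 factors, and a CCAAT box was found for Foxa1, Elf3 and the outermost of the starts of Foxa2.

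Cebpd was higher in hyperoxia, with a log2 fold change of 1.46 ± 0.30 SE (95% interval 0.83 to 2.09, adjusted p = 0.00238, edgeR), 2.75 times the level in normoxia. Its lowest, median and highest values were 76.7, 112 and 210 CPM in normoxia (mean 131.5 ± 46.6 SD, n = 7) and 133, 345 and 622 CPM in hyperoxia (mean 361 ± 166 SD, n = 6). Hyperoxia replicate 1 lay inside the normoxic range, and the other 5 hyperoxic libraries lay above it. Without that library the log2 fold change was 1.65 (adjusted p = 1e-04, edgeR). Cebpd (chr16:15887286-15891031, plus strand) overlaps Spidr on the opposite strand, and as the counting was not stated to use strand, reads of the overlap cannot be assigned with certainty. Spidr itself had 0 to 38 counts per library.

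The forkhead factors and Gata6 did not pass the test. Foxa1, which opens chromatin ahead of other factors, had 18.1, 28.5 and 42.9 CPM at the lowest, median and highest in normoxia and 1.07, 22.9 and 25.0 CPM in hyperoxia. The value of 1.07 CPM was 2 counts in hyperoxia replicate 1, below the floor, while the other 5 hyperoxic libraries lay between 19.1 and 25.0 CPM, within the normoxic range. Its log2 fold change was −0.58 ± 0.38 SE (95% interval −1.38 to 0.22, adjusted p = 0.297, edgeR) and −0.33 without that library (adjusted p = 0.221).

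Foxa2, its close relative, had a small spread within the groups (57.6 ± 3.30 SD CPM, n = 7, and 50.7 ± 4.31 SD CPM, n = 6). Its values were 53.5, 57.6 and 62.5 CPM in normoxia and 42.9, 52.4 and 54.2 CPM in hyperoxia, with 4 of 6 hyperoxic libraries below all 7 normoxic ones. The log2 fold change was −0.18 ± 0.11 SE (adjusted p = 0.284, edgeR). Gata6 (73.6 ± 9.82 SD CPM, n = 7, against 62.9 ± 19.0 SD CPM, n = 6) had a log2 fold change of −0.22 ± 0.19 SE (adjusted p = 0.444, edgeR), and its hyperoxic libraries ran from 32.7 CPM in replicate 1 to 86.9 CPM in replicate 3, so that the groups overlapped over nearly all of the normoxic range. Without hyperoxia replicate 1 the log2 fold change of Gata6 was −0.08 (adjusted p = 0.735, edgeR).

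Of the factors of barrier epithelia, Ehf came closest to the threshold. Its values were 28.8, 42.7 and 74.1 CPM in normoxia and 22.9, 29.1 and 46.1 CPM in hyperoxia. Hyperoxia replicate 1 was the highest of its group, and the other 5 hyperoxic libraries lay at or below 30.9 CPM. The log2 fold change of Ehf was −0.63 ± 0.23 SE (adjusted p = 0.0561, edgeR), and without hyperoxia replicate 1 it was −0.77 and passed (adjusted p = 0.0109). Grhl2 had 6.72, 13.5 and 20.4 CPM in normoxia and 6.97, 8.61 and 11.9 CPM in hyperoxia, and all 6 hyperoxic libraries lay below the normoxic median. Its log2 fold change was −0.57 ± 0.26 SE (adjusted p = 0.136, edgeR).

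Klf5 and Elf3 varied widely within each group. Klf5 had 5.85, 40.0 and 64.3 CPM in normoxia and 23.1, 47.5 and 91.4 CPM in hyperoxia, with a log2 fold change of 0.43 ± 0.39 SE (adjusted p = 0.468, edgeR). Normoxia replicate 6 was the lowest of all libraries for Klf5, and the other 6 normoxic libraries lay inside the hyperoxic range. The log2 fold change of Klf5 was 0.25 without that library and ran from 0.22 without hyperoxia replicate 3 to 0.61 without normoxia replicate 5, and it was also 0.61 without hyperoxia replicate 1. Elf3 was the lowest counted of the factors, with 6 to 48 counts per library, and its log2 fold change was −0.31 ± 0.39 SE (7.12 ± 3.26 SD CPM, n = 7, against 5.48 ± 3.08 SD CPM, n = 6, adjusted p = 0.611, edgeR). It ran from −0.61 without hyperoxia replicate 6 to −0.155 without hyperoxia replicate 5, and Elf3 did not pass in any of the 13 fits that left out 1 library.

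A total of 3 related pairs were compared within each library, as log2 ratios of CPM plus 1, in which the scaling of the library nearly cancels. The 3′ counts are not per length, so only the change of a ratio is read. The ratio of Cebpd over Cebpa ran from 1.64 to 3.27 in normoxia (mean 2.43 ± 0.49 SD, n = 7) and from 3.22 to 5.64 in hyperoxia (mean 4.58 ± 0.86 SD, n = 6). It was higher in hyperoxia by 2.15 on the log2 scale (p = 0.00117, exact permutation test, two-sided, p = 0.00351 adjusted over 3 pairs), where the smallest p that the 1716 splits can give is 0.000583. The groups overlapped by 1 library of each, hyperoxia replicate 1 at 3.22 being below normoxia replicate 4 at 3.27. The ratio of Foxa1 over Foxa2 was −1.005 ± 0.39 SD in normoxia and −1.71 ± 1.32 SD in hyperoxia (difference −0.71, adjusted p = 0.195, exact permutation test), and without hyperoxia replicate 1 the difference was −0.17. The ratio of Elf3 over Ehf differed by 0.24 (adjusted p = 0.66, exact permutation test).

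**Figure D2:**
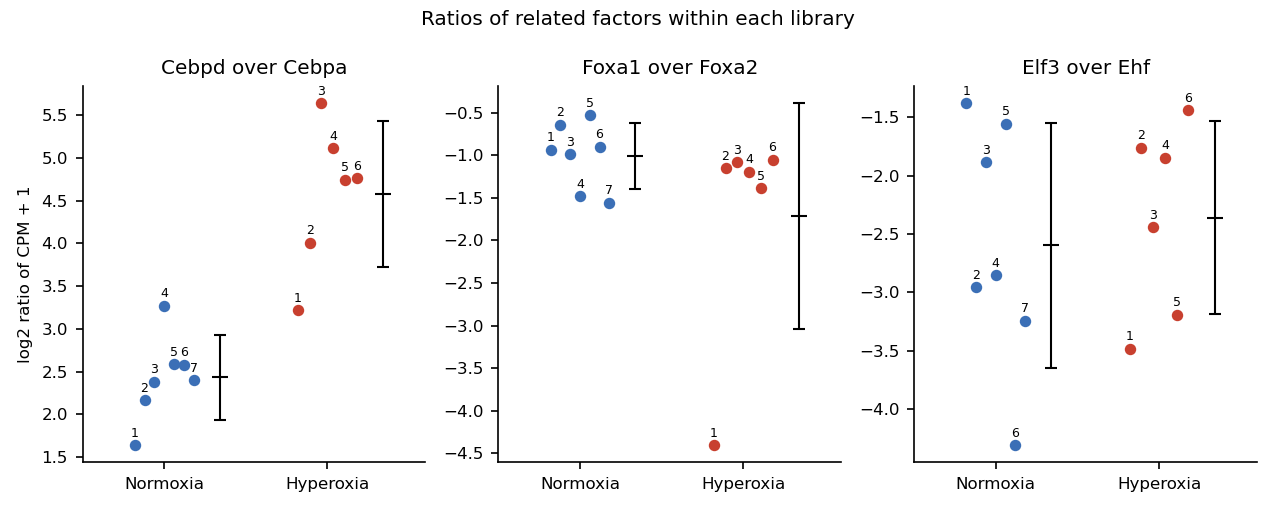
Log2 ratio of CPM plus 1 (vertical axes) for 3 pairs of related factors in each of the 7 normoxic (blue) and 6 hyperoxic (red) libraries, numbered by replicate, with the mean and SD in black. The ratio of Cebpd over Cebpa moves from a mean of 2.43 to 4.58, while the low ratio of Foxa1 over Foxa2 in hyperoxia rests on replicate 1 at −4.4.

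To set the factors against the amount of epithelial RNA, the libraries were scaled to the summed counts of 18 pan-epithelial genes, among them keratins, junction genes, proteases and splicing regulators, of which 1, Krt18, was higher (log2 fold change 1.03) and 0 were lower. The log2 fold changes of the others ran from −1.06 for Spint2, over 0.11 for Epcam and 0.01 for Cdh1, to 1.23 for Krt19 and 1.24 for Krt8, which did not pass. Without hyperoxia replicate 1, 5 of 19 pan-epithelial genes were higher and 0 lower, where 15.2% of all genes were higher. Relative to these genes, with the median of all genes at −0.33, Nkx2-1 had a log2 fold change of −1.24 (adjusted p = 0.00525), Cebpa one of −1.08 (0.0319), Foxa1 one of −1.10 (0.0331) and Cebpd one of 1.01 (0.0223), all by edgeR. The other 6 factors did not pass, Grhl2 (−0.98, adjusted p = 0.0883) and Gata6 (−0.63, adjusted p = 0.095) being the nearest. This fit called 1899 of all 12496 genes, and 12.7% of these calls were higher. Without hyperoxia replicate 1, whose pan-epithelial sum was the lowest, the same scaling with 19 genes tested put the median of all genes at −0.61 and called 45.4% of all genes. There Nkx2-1 was at −1.40, Cebpa at −1.40, Foxa1 at −0.93 (adjusted p = 0.0042) and Cebpd at 1.03 (adjusted p = 0.00216, edgeR), and Foxa2, Gata6, Ehf and Grhl2 passed as lower as well, Foxa2 (−0.73) and Gata6 (−0.70) lying close to the median of all genes. The sum over all 20 listed genes was 453 to 764 CPM in normoxia and 338 to 1230 CPM in hyperoxia, or 706 to 1230 CPM without hyperoxia replicate 1. Over the 17 listed genes other than Krt8, Krt18 and Krt19 it was 354 to 532 CPM in normoxia and 308 to 528 CPM in hyperoxia. Scaled to the 15 tested genes that remain, Nkx2-1 (−0.88, adjusted p = 0.00217), Cebpa (−0.75, 0.0405) and Cebpd (1.499, 0.00148) passed by edgeR and Foxa1 did not (−0.56, adjusted p = 0.286), with the median of all genes at 0.04. That last fit called 2056 of all 12496 genes.

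**Figure D3:**
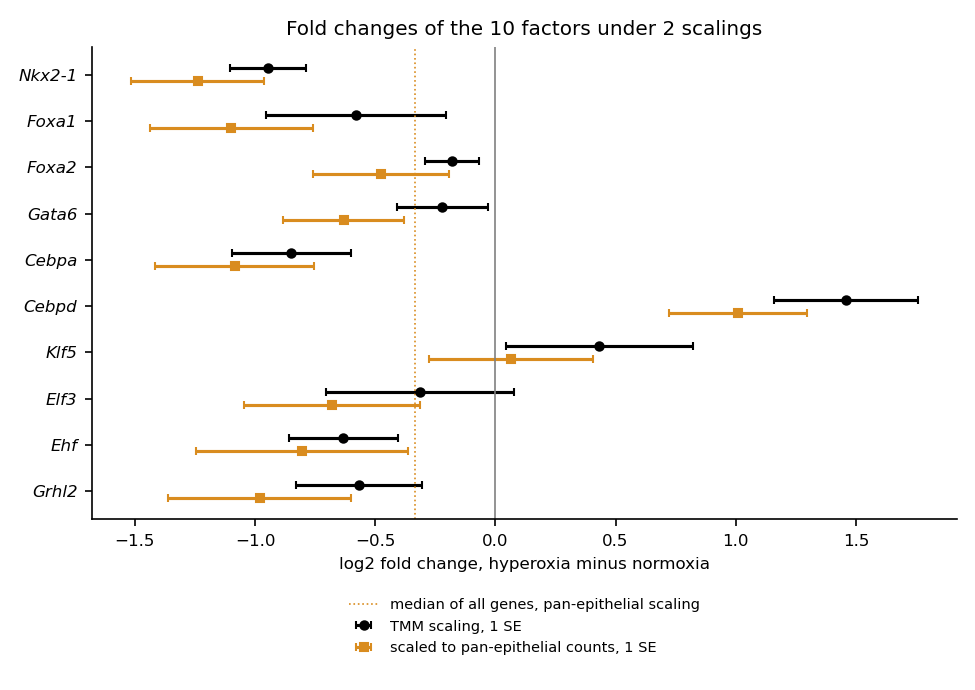
Log2 fold change of hyperoxia against normoxia (horizontal axis, bars of 1 SE) of the 10 factors with TMM scaling (black) and with scaling to pan-epithelial counts (orange), whose median over all genes of −0.33 is dotted. Nkx2-1 and Cebpa lie below 0 and Cebpd lies above 0 under both scalings.

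The libraries carry letters that run from B to M (5 normoxic, 3 hyperoxic) and from O to S (2 normoxic, 3 hyperoxic), and what the letters stand for was not given. The mean log2 CPM of Nkx2-1 differed by −1.06 between hyperoxia and normoxia in the first set and by −0.75 in the second. For Cebpa the differences were −0.79 and −0.49, and for Cebpd they were 1.10 and 1.91, so that each of the called factors kept its direction in both sets. Elf3 did not, with −0.78 in the first set and 0.49 in the second, and Klf5 (0.13 and 1.56), Foxa1 (−1.58 and −0.15) and Ehf (−0.31 and −1.16) had unlike values. The first-set value of Foxa1 rests largely on hyperoxia replicate 1, at 1.07 CPM. Likewise, the second-set value of Klf5 rests largely on normoxia replicate 6, at 5.85 CPM and 1 of only 2 normoxic libraries there. Within the first set alone Cebpd did not pass (log2 fold change 1.35, adjusted p = 0.0672, edgeR), and Cebpa passed in neither set (adjusted p = 0.137 and 0.231, edgeR). Within the second set alone Ehf passed (log2 fold change −1.20, adjusted p = 0.00674, edgeR).

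Of 47 other regulators of lung epithelium, 38 were tested, 5 were higher and 8 lower, where 11.8% of all genes were higher and 10.8% lower, with a median log2 fold change of −0.18. The higher ones included Klf6 (log2 fold change 1.05), an early response zinc finger factor, the stress-induced Nupr1 (2.44) and the Hippo coactivator Wwtr1 (0.59). The lower ones included the Ets factors Etv5 (−1.77), which maintains type 2 cells, Etv1 (−0.72) and Elf5 (−0.97). Etv5 had a mean of 67.3 CPM in normoxia and 19.5 CPM in hyperoxia.

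Genes of alveolar type 2 cells, many of which are described targets of Nkx2-1 and Cebpa, were lower for 16 of 20 and higher for 0, with a median log2 fold change of −1.28. Lamp3 of lamellar bodies (−1.73), Hc (−2.90) and the surfactant lipid transporter Abca3 (−1.27) were among them. So was Sftpc (−2.72, 9637 CPM in normoxia and 1465 CPM in hyperoxia). The 4 that did not pass were Sftpd (−0.48), Napsa (−1.15), Sftpb (−0.38) and Ctsh (0.58). Regulation of these genes by the factors was not tested. The summed level of the 20 genes did not overlap, with 20000 to 33600 CPM in normoxia and 6070 to 11600 CPM in hyperoxia. Genes of alveolar type 1 cells, which also depend on Nkx2-1, showed 3 of 16 higher, Akap5 (1.20), Lmo7 (1.19) and Krt7 (1.15), and 1 lower, Rtkn2 (−0.95), and their sum was 6100 to 6760 CPM in normoxia and 8500 to 9690 CPM in hyperoxia. Without the 3 higher genes the sum of the other 13 was 4020 to 4460 CPM in normoxia and 3180 to 4060 CPM in hyperoxia. The 3 were left out for being called higher in these data, while Rtkn2, called lower, was kept. The choice itself tilts that sum towards lower values, and of the 13 genes only Rtkn2 passed.

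Airway genes were lower where they passed, with 1 exception. Of 14 club cell genes 6 were lower, among them Scgb1a1 (−2.96) and Cyp2f2 (−2.71), and 1 was higher, the shared Nupr1. Of 15 ciliated cell genes 4 were lower, among them Tppp3 (−1.82), Ccdc153 (−1.26) and Rsph1 (−0.97), and 0 were higher, while Foxj1, the factor of ciliated cells, had a log2 fold change of −0.01. Without hyperoxia replicate 1 the other regulators had 7 genes higher and 8 lower, the type 2 list 17 lower and 1 higher, the type 1 list 4 higher and 2 lower, the club list 8 lower and 2 higher and the ciliated list 6 lower, in a fit in which 28.5% of all genes passed against 22.6% with that library. Of 14 listed inflammatory genes linked to C/EBP factors, 9 were tested. Of these, 3 were higher, Saa3 (1.95), Ptgs2 (2.01) and Lcn2 (1.59), and 2 were lower, Hp (−1.16) and Lbp (−0.79). Hp is in the club cell list too and is counted as lower there. The relation of these genes to Cebpd was not tested.

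**Figure D4:**
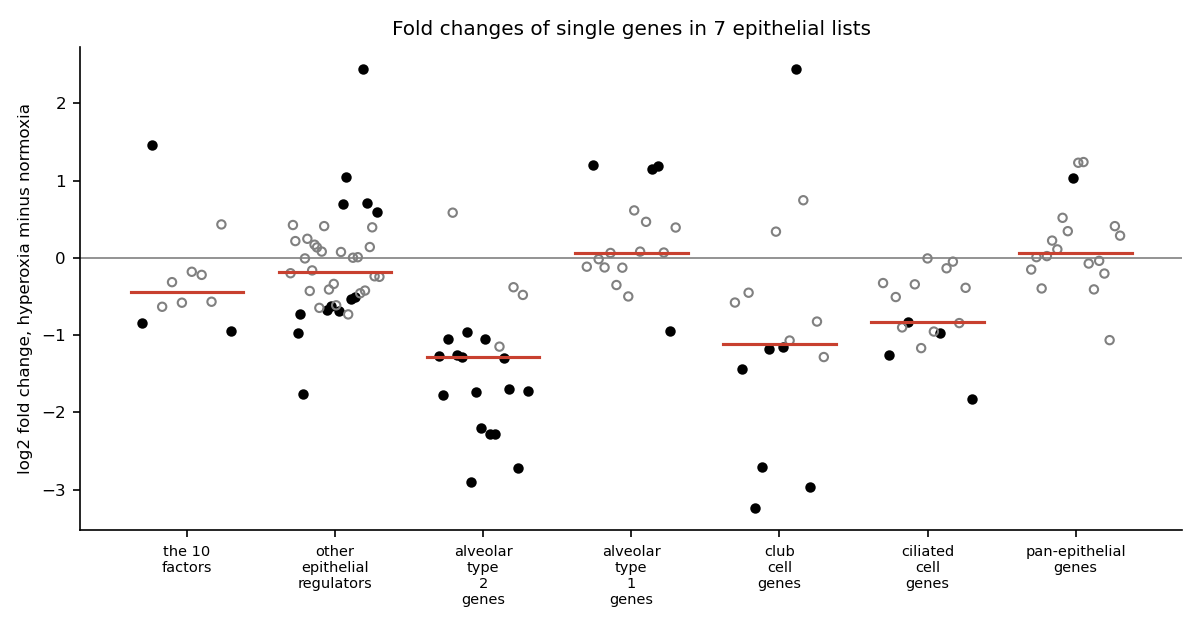
Log2 fold change of hyperoxia against normoxia (vertical axis) of every tested gene in 7 lists, filled where the adjusted p was under 0.05, with the list's median as a red line. The medians run from −1.28 for alveolar type 2 genes to 0.07 for type 1 and pan-epithelial genes, with the 10 factors at −0.44.

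Markers of other cell types were counted in the same fit, in which 11.8% of all genes were higher and 10.8% lower. All 7 tested lymphocyte markers were lower (summed 146 to 197 CPM in normoxia, 37.9 to 94.4 CPM in hyperoxia, or to 58.8 CPM without hyperoxia replicate 1), and so were 4 of 7 cardiac muscle genes (89.6 to 288 CPM against 4.83 to 307 CPM, or 17.4 to 307 CPM without it) and 2 of 4 mesothelial markers (108 to 208 CPM against 60.5 to 128 CPM, or to 105 CPM without it). Of 13 endothelial markers 2 were higher and 4 lower, of 13 macrophage and monocyte markers 1 and 5, of 9 fibroblast markers 2 and 2, and of 10 smooth muscle and pericyte markers 3 and 1. None of 5 neutrophil markers passed, at an adjusted p under 0.05 (edgeR), and 1 of 7 thyroid genes was tested and did not pass. The part of these shifts in the values of the 10 factors was not tested.

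The spread of the factors within the groups was not shared by all of them. The deviations of log2 CPM from the group means, over the 13 libraries, had a Pearson correlation of −0.84 between Klf5 and Ehf (−0.82 without hyperoxia replicate 1), −0.76 between Cebpa and Grhl2 (−0.77 without it) and 0.69 between Cebpa and Elf3 (0.73 without it). Normoxia replicate 6 was the lowest normoxic library for Nkx2-1, Cebpa, Cebpd, Klf5 and Elf3 and the highest for Ehf and Grhl2. Foxa1 correlated with Gata6 at 0.84 and with Foxa2 at 0.77, and at 0.59 and 0.43 without hyperoxia replicate 1. The points of a correlation share their library's depth and composition.

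By the same measure, over 13 libraries, the gene most like Nkx2-1 was Crtc2 (0.93), followed by Copg1 (0.92) and Tmed4 (0.91). For Cebpa the first was Rab11fip5 (0.92), for Cebpd Slit3 (0.92), for Klf5 Gpx3 (0.95) and for Ehf Fhad1 (0.94). Foxa1 was most like mt-Co2 (0.98, and 0.88 without hyperoxia replicate 1). For Foxa2 it was Gigyf1 (0.90), for Gata6 Rab18 (0.93) and for Grhl2 Dnah6 (0.87), while Elf3 was below the level of log2 CPM of 3 required for this measure. Each value is the largest over all genes of that level, and picking the largest of many gives high values by itself. Without hyperoxia replicate 1 the same first gene was at 0.89 for Nkx2-1, 0.93 for Cebpa, 0.87 for Cebpd and 0.94 for Klf5. It was at 0.915 for Ehf, 0.82 for Foxa2, 0.83 for Gata6 and 0.90 for Grhl2.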

How the data were processed

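Quant-seq reads of 13 mouse lung libraries were pseudoaligned by the authors with kallisto in the BioJupies pipeline (mm10 in the submitters' processing notes), and the deposited counts are whole numbers per gene symbol without normalization or a filter. The authors also deposited log10 values, log10 of CPM plus 1, which recomputing from the counts gave to within 4.4e-16. Of 32544 symbols, 12826 had no count. From the counts, 12496 genes were tested with edgeR 4.0.16 (quasi-likelihood, TMM, filterByExpr) in R 4.3.3. The threshold was an adjusted p of 0.05, log2 CPM used a prior count of 2, and standard errors came from the F statistic. On simulated counts over 12369 genes the fit recovered 56% of 2-fold and 100% of 4-fold changes, with 3.7% false calls. The simulation gave every gene the same dispersion (0.106), the spread beyond counting error, and changed 200 genes of middle level. It held no library like hyperoxia replicate 1 and no difference between letter sets, so its rates need not hold for these data.

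The 10 factors, the 16 other gene lists and the tests were chosen with earlier results of these data known. Named genes are all factors, at most 3 higher and 3 lower per list by smallest adjusted p, the tissue markers, and the genes most like each factor. Scgb1a1, Sftpc, Sftpb, Sftpd, Napsa, Ctsh, Epcam, Cdh1, Spint2, Krt8, Krt19, Foxj1 and Spidr were named after their values were seen. Sftpc and Scgb1a1 were named as tissue markers too. Alternatives were DESeq2 1.42.0, limma-voom (limma 3.58.1), limma on the deposited log10 values, library size alone, pan-epithelial scaling, a minimum of 10 counts per library, no filter, a replicate block, the letter sets, other pseudocounts (0.1 and 5), the study's log2 fold change of 1.5 and each library left out in turn. Pan-epithelial scaling without 3 keratins or without hyperoxia replicate 1, a sign-flip test of paired ratios, list counts without hyperoxia replicate 1 and list sums without 3 genes were added after seeing the data. Coordinates are from GENCODE M21.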

Additional observations from a re-analysis of the deposited data

Results flagged for a closer look

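Of 28 groups of values examined for a single library far from the rest, 3 were picked out, where chance gives about 1.4 (1 in 20 groups), and all 3 came from hyperoxia replicate 1. The values are not independent, as 2 of the 3 rest on the same Foxa1 count. Its Foxa1 level was 1.07 CPM, 2 counts, and the nearest other hyperoxic library was at 19.1 CPM. Its Ehf level was 46.1 CPM, the highest of its group, with the nearest at 30.9 CPM. Its log2 ratio of Foxa1 over Foxa2 was −4.4, with the nearest at −1.39. The same library held 631 pan-epithelial counts, where the others held 1189 to 4490, and what sets it apart was not tested.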

How the results depend on the processing

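At an adjusted p under 0.05 with no limit on the fold change, Nkx2-1 passed in 12 of 12 alternatives (log2 fold change −1.24 to −0.75) and with each of 13 libraries left out. Cebpd passed in 11 of 12 and 13 of 13, and Cebpa in 9 of 12 and 10 of 13. Ehf, not called, passed in 6 of 12 alternatives, Foxa1 under pan-epithelial scaling (−1.10, but −0.56 and not passed without 3 keratins) and Grhl2 with the letter set as a term (−0.68). The 2819 genes called became 1120 within letters B to M, 488 with a log2 fold change over 1.5 and 2305 to 3633 with 1 library left out. Factors called lower numbered 4 with the letter set as a term, 1 within B to M, 0 with a log2 fold change over 1.5 (Nkx2-1 did not pass it) and 1 to 3 with 1 library left out. Factors called higher numbered 0 within B to M and 0 with a log2 fold change over 1.5, and 1 with each library left out. Cebpd over Cebpa changed by 2.39 within O to S (p = 0.1, exact permutation test, the smallest it can give) and by 1.94 to 2.42 with 1 library left out. Foxa1 over Foxa2 changed by −1.30 within B to M, by 0.016 within O to S and by −0.84 to −0.17 with 1 library left out. Elf3 over Ehf changed by −0.44 within B to M, by 1.62 within O to S, by −0.048 without normoxia replicate 6 and by up to 0.46 without another library. Foxa1 and Elf3 had too few counts for the filter of at least 10 in every library. The causes were not tested.

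With a replicate block, on 12 libraries, 1291 genes and 1 factor lower (Nkx2-1) were called, and Cebpa did not pass (−0.82, adjusted p = 0.0792, edgeR). The numbers did not pair the libraries. Deviations of same-numbered libraries correlated at −0.33 to 0.27, over 0.1 in 1 of 6 pairs, and 1 library correlated best with its own number.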
